A study of Mus musculus with 8 samples.

Results

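The p53 target genes examined here are 34 genes, Trp53 itself and 33 genes reported to be switched on by the p53 protein, out of 36920 genes in the deposited count table. They were taken by name: each symbol was matched to its Ensembl identifier in GENCODE M21, and all 34 had a row in the table and passed the filter on low counts. The libraries came from R1 mouse embryonic stem (ES) cells, an established line, grown in serum with Lif and exposed to ML-792, an inhibitor of the enzyme that starts the attachment of the small protein SUMO to other proteins. D1 libraries were labelled control and stood before any exposure, D3 libraries followed a first 48 h exposure, D8 libraries were again labelled control after 5 days without the inhibitor, and D10 libraries followed a second 48 h exposure. Each group held 2 libraries, 8 in all, and the labels state the inhibitor dose as 2.5 mM. No untreated library of D3 or D10 was analysed here, so the inhibitor and 48 h of further culture cannot be told apart. The title of D1 replicate 2 places it at D1, while its time tag reads D0. Nothing in the labels says that the replicates were separate cultures, so each p-value reflects the spread of these libraries alone, which may be technical.

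The p53 protein binds DNA as a tetramer and raises transcription of genes that stop the cell cycle, repair DNA, alter metabolism or start cell death. Mdm2, one of its targets, is the ubiquitin ligase that marks p53 for destruction, which closes a feedback loop. Because p53 is controlled mostly through the stability and modification of the protein, its mRNA and that of its targets need not move together. Both p53 and Mdm2 are known SUMO substrates, and mouse ES cells keep p53 at a high protein level while they cycle quickly.

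The DNA element that p53 recognises is built from a pair of decamers of 10 bases each, lying side by side or a short spacer apart. An exact p53 decamer was searched on both strands (the decamer reads the same on either strand) from 250 bases before to 50 bases after each annotated start, in RefSeq promoter windows of build GRCm38.p6. Windows were found for 26 of the 34 genes, and 11 of these 26 genes (42.3%) held a decamer, beside 9.55% of the 27025 genes of the promoter table. Cdkn1a was the one p53 target with a pair of decamers 0 to 13 bases apart (3.85% of 26), and 20 genes of the table (0.074%) had such a pair. A match is a description of letters and not a measured binding site. The stretches below are shown because they hold the decamers of the cell-cycle, feedback, apoptosis, repair and redox genes described in the results. They run 5′ to 3′ along the gene, with the decamer in capitals.
Cdkn1a, chr17:29090881-29090962, plus strand: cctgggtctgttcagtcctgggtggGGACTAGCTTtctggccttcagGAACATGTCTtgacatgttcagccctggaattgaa
Mdm2, chr10:117710910-117710969, minus strand: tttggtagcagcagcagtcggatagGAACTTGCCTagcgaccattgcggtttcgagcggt
Ccng1, chr11:40755437-40755496, minus strand: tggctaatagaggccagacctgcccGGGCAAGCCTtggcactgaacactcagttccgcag
Trp53, chr11:69580259-69580318, plus strand: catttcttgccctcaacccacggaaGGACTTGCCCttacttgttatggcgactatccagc
Ckap2, chr8:22185988-22186047, minus strand: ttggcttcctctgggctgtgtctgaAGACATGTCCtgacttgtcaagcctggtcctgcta
Polk, chr13:96519384-96519437, minus strand: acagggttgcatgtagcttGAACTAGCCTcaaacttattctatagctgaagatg
Sesn1, chr10:41887241-41887300, plus strand: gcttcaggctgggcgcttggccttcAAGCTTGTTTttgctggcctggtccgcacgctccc
Bax, chr7:45467065-45467124, minus strand: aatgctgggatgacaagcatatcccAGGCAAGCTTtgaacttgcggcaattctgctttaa
Aen, chr7:78895927-78895956, plus strand: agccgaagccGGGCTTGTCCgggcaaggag
Ei24, chr9:36797325-36797354, minus strand: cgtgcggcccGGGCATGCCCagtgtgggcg

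**Figure D1:**
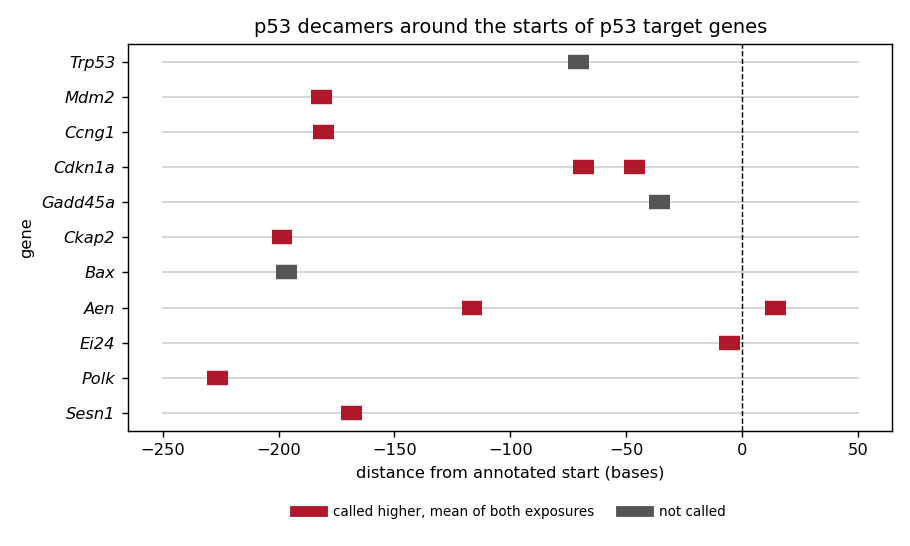
Position of each exact p53 decamer (thick bar) along the window from 250 bases before to 50 bases after the annotated start (dashed line), for the 11 p53 target genes that hold one; the x axis is in bases, and Aen shows 1 decamer at 2 distances because 2 annotated starts share it. Bars are red for the 8 genes called higher in the mean of both exposures and grey for the 3 that were not called.

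Libraries held 21040992 to 40835518 reads in genes, and 19173 genes passed the filter on low counts. D8 replicate 2 stood apart: across 14693 coding genes, the rank correlation of its expression, relative to the other libraries, with gene GC content was 0.548, and that of the other 7 libraries ran from -0.341 to 0.115. The 2 D3 libraries (-0.318 and -0.297) and D10 replicate 1 (-0.341) were the lowest of these, while the other exposed library, D10 replicate 2 (0.0133), lay among the controls, so the GC trend differed from the controls in 3 of the 4 exposed libraries. In D8 replicate 2, 6 of the 34 p53 targets were over 1.5 times their level in D8 replicate 1 (Dcxr 2.46, Ephx1 2.27, Cdkn1a 2.05, Plk2 1.99, Phlda3 1.64 and Fdxr 1.55), and 3 were under 0.75 times (Rrm2b 0.634, Eda2r 0.717 and Trp53inp1 0.748). All 7 ES cell markers fixed for the analysis were detected, with summed levels of 3988 to 4165 CPM (reads of a gene scaled to a common library total) at D1, 3085 to 3332 at D3, 3861 to 3930 at D8 and 2438 to 2546 at D10. The 6 markers of 2-cell-like cells summed to 40.3 to 77.1 CPM at D1, 668 to 2207 at D3, 5.63 to 10.4 at D8 and 472 to 475 at D10, and all 6 were called higher in both exposures. Fibroblast (feeder) markers stayed between 5.88 and 19.7 CPM in all 8 libraries (5 of 7 had at least 10 reads in total and none was at 0), and neural and mesoderm markers between 19.9 and 34.9 CPM. Endoderm markers summed to 14.3 to 18.4 CPM at D1, 19.3 to 29.7 at D3, 96.0 to 145 at D8 and 74.0 to 79.1 at D10. Of the 7 ES cell markers, 0 were called in the first exposure. In the second 5 were lower (71.4%, beside 7.65% of all genes). Outside these and the 2-cell-like list, Gata6 (endoderm) was called higher in the first exposure. In the second, T (mesoderm) was higher, and Dab2 (endoderm) and Pdgfrb (fibroblast) were lower. The part of these marker shifts in the p53 target values below was not tested, and in bulk RNA a change in the share of cells of one kind and a change per cell cannot be told apart.

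Levels per library are CPM after TMM scaling, and differences are log2 fold changes ± standard error from edgeR's quasi-likelihood fit of all 8 libraries, with p adjusted over all genes tested by the Benjamini-Hochberg method and called under 0.05. After the first exposure 14 of the 34 p53 targets rose and 1, Gdf15, fell, while 19 did not pass (D3 against D1). Over all genes tested, 13.0% were called in that comparison, 7.92% higher and 5.10% lower. The median log2 fold change of the 34 was 0.52, beside -0.00186 over all genes, and 28 of the 34 lay above 0. In 24 of the 34 both D3 libraries were above both D1 libraries and in 3 below, beside 32.8% and 32.0% of all genes. After the second exposure 10 rose, 2 (Gdf15 and Ddb2) fell and 22 did not pass (D10 against D8), where 16.9% of all genes were called, 9.27% higher and 7.65% lower. The median was then 0.34 for the 34 and 0.0312 for all genes, and 25 of the 34 lay above 0. Both D10 libraries were above both D8 libraries in 18 of the 34 and below in 5, beside 27.2% and 27.6% of all genes. The mean of both exposures, which sets the 4 exposed libraries against the 4 control libraries in the same fit, called 19 higher and 3 lower (Gdf15, Ddb2 and Tigar) and left 12, where 30.4% of all genes were called, 16.3% higher and 14.2% lower. All 4 exposed libraries were above all 4 controls in 16 of the 34 genes and below them in 3, beside 16.1% and 14.9% of all genes. Leaving out 1 library at a time moved the count of 15 called in the first exposure down to 3 when D1 replicate 1 was dropped and to 6 when D1 replicate 2 was, and to 5 and 7 when D3 replicates 1 and 2 were. The count of 12 in the second exposure became 5 without D10 replicate 1 and 6 without D10 replicate 2. Fitted on the compared libraries alone, the first exposure called 23 of the 34 and the second 4 (Mdm2, Ccng1, Pmaip1 and Gdf15). Shares of all genes called in these reduced fits are not set beside the counts. A change in calls over all genes and a change in the 34 are therefore not told apart.

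**Figure D2:**
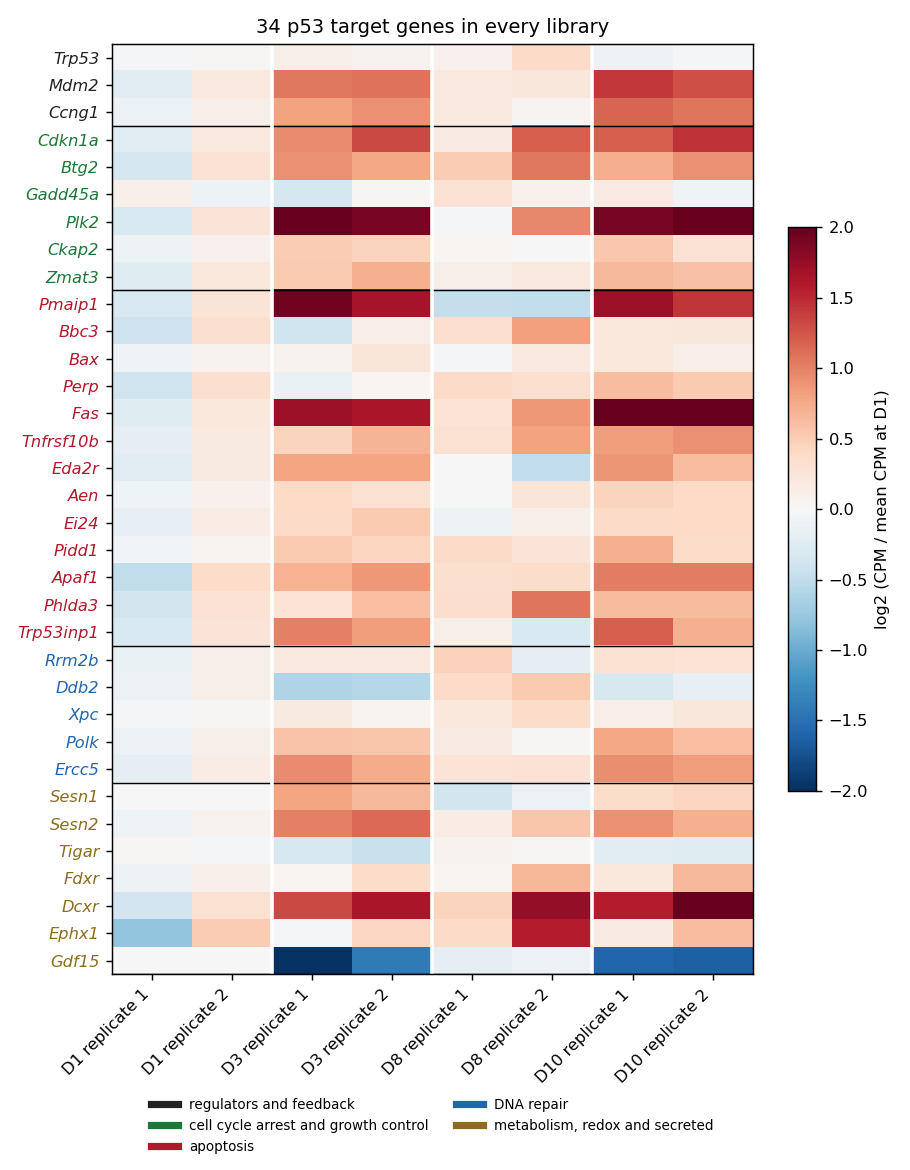
Level of each of the 34 p53 target genes (rows, by role) in each of the 8 libraries (columns), coloured by its log2 CPM relative to the gene's mean CPM at D1. Mdm2, Ccng1, Plk2, Pmaip1 and Fas are above their D1 mean in all 4 exposed libraries, and Gdf15, Ddb2 and Tigar are below theirs.

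**Figure D3:**
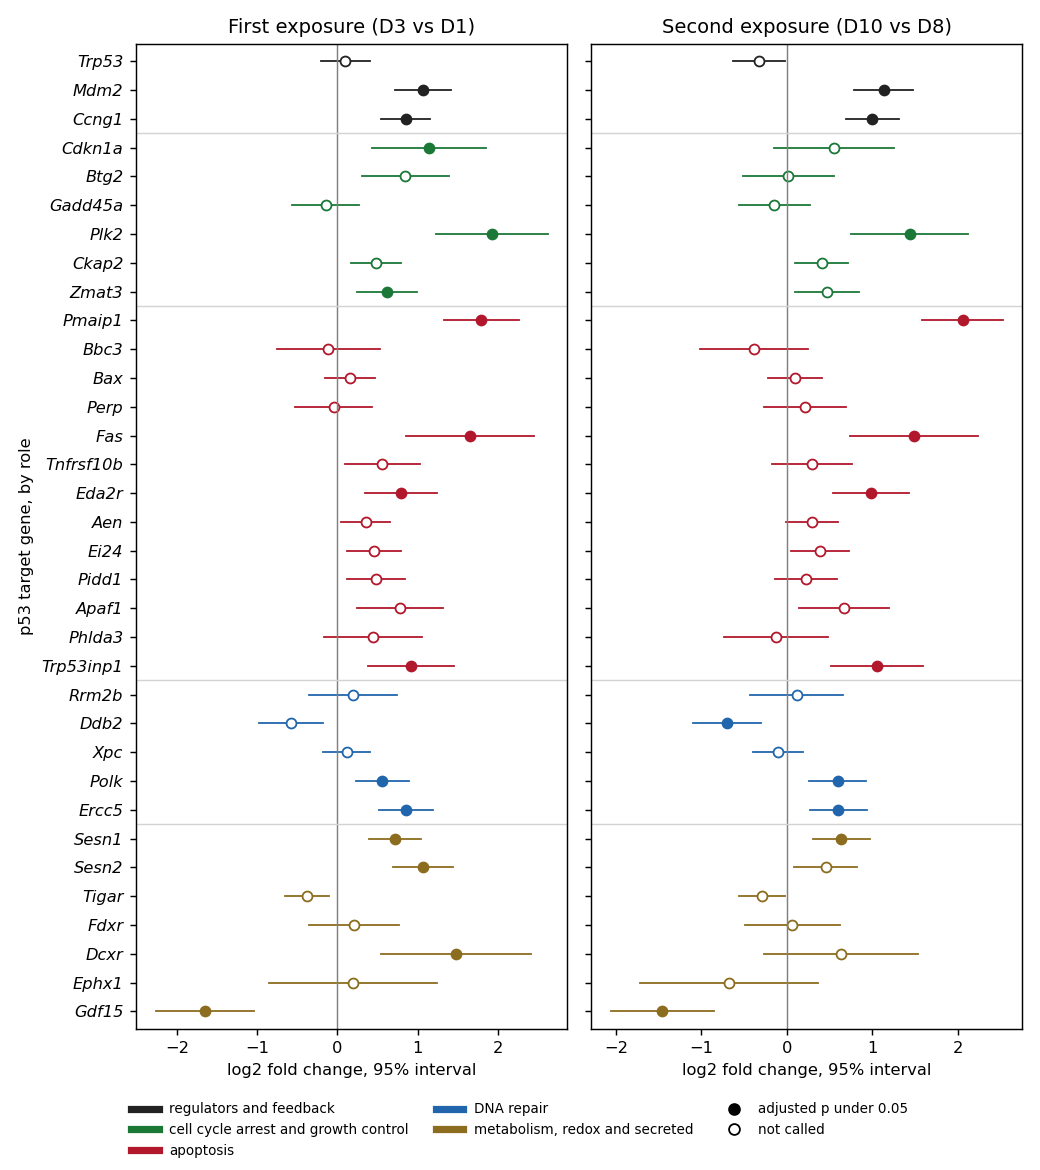
Log2 fold change with its 95% interval for each of the 34 genes (y axis, coloured by role) after the first exposure and after the second, with filled circles for genes called at an adjusted p under 0.05 and open circles for the rest. Pmaip1 lies farthest to the right after the second exposure (2.06) and Gdf15 farthest to the left in both (-1.66 and -1.46).

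Of the 3 regulators, the feedback genes Mdm2 and Ccng1 rose in both exposures, and Trp53 did not pass the test in either. Trp53, which encodes p53, was counted at 182 and 187 CPM in the D1 libraries, 201 and 194 in D3, 197 and 242 in D8, and 171 and 179 in D10. The D3 libraries lay above those of D1 and the D10 libraries below those of D8, each by a small margin. Its log2 fold change was 0.10 ± 0.13 in the first exposure (edgeR adjusted p = 0.68) and -0.32 ± 0.13 in the second (0.14), with 95% intervals from -0.21 to 0.40 and from -0.63 to -0.02. An increase of Trp53 mRNA by more than 0.40 lies outside both intervals.

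Mdm2, the ubiquitin ligase that limits p53, was counted at 133 and 176 CPM in the D1 libraries, 320 and 328 in D3, 177 and 181 in D8, and 409 and 378 in D10. Every exposed library was above every control library, and the D8 libraries lay just above those of D1. The log2 fold change was 1.07 ± 0.15 in the first exposure (edgeR adjusted p = 0.0046) and 1.14 ± 0.15 in the second (0.0028), which are 2.10-fold and 2.20-fold. Ccng1, the cyclin G1 gene, whose product takes part in the Mdm2 loop, was counted at 334 and 392 CPM in the D1 libraries, 631 and 681 in D3, 416 and 375 in D8, and 817 and 766 in D10. It rose by 0.85 ± 0.14 (edgeR adjusted p = 0.0066) and 1.0 ± 0.14 (0.0029), with no overlap between exposed and control libraries. The Mdm2 call held in all 8 fits that left out 1 library, in both exposures; the Ccng1 call was lost once, in the first exposure without D1 replicate 1 (adjusted p = 0.071).

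Of the 6 genes of cell cycle arrest and growth control, 3 rose in the first exposure, 1 in the second and 4 in the mean of both, and none fell. These are 50%, 16.7% and 66.7%, beside 7.92%, 9.27% and 16.3% of all genes that rose. Over all genes 5.10%, 7.65% and 14.2% fell. Plk2, a kinase that p53 induces and that acts on centrioles, was counted at 47.9 and 70.6 CPM in the D1 libraries, 232 and 220 in D3, 58.1 and 116 in D8, and 222 and 250 in D10. Its log2 fold change was 1.93 ± 0.31 in the first exposure (edgeR adjusted p = 0.0066), the largest of the 34, and 1.44 ± 0.30 in the second (0.015). The exposed libraries did not overlap the controls, although D8 replicate 2 stood at 1.99 times D8 replicate 1. The first call was lost without D1 replicate 1 (0.059) and the second without D10 replicate 2 (0.052).

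Cdkn1a, which encodes the cyclin-dependent kinase inhibitor p21 and is the classical arrest target, was counted at 19.0 and 25.3 CPM in the D1 libraries, 42.8 and 55.3 in D3, 24.8 and 50.8 in D8, and 50.6 and 60.4 in D10. The D3 libraries were both above D1, while at D8 replicate 2 already reached the D10 level and the groups overlapped. Its log2 fold change was 1.14 ± 0.31 in the first exposure (edgeR adjusted p = 0.046) and 0.55 ± 0.31 in the second (0.26), and the mean of both was 0.85 ± 0.22 (0.02), a call that was lost without D1 replicate 1, D3 replicate 2 or D10 replicate 2 (highest adjusted p = 0.081). Without D8 replicate 2 the second response of Cdkn1a was 1.13 (adjusted p = 0.025), and corrected for gene length and GC content it was 0.81 (0.036). The first-exposure call of Cdkn1a was close to the threshold and held in 2 of the 8 fits that left out 1 library; it was lost without either D1, either D3 or either D10 library (highest adjusted p = 0.24).

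Zmat3, a zinc-finger RNA-binding protein and p53 target, was counted at 55.0 and 75.1 CPM in the D1 libraries, 93.4 and 106 in D3, 70.4 and 74.8 in D8, and 102 and 98.0 in D10. Its libraries did not overlap between exposure and control, with 0.62 ± 0.17 in the first exposure (edgeR adjusted p = 0.042) and 0.47 ± 0.16 in the second (0.088). The first call of Zmat3 was lost when gene length and GC content were corrected for, and without either D1, either D3 or either D10 library (highest adjusted p = 0.27). Ckap2, a spindle protein induced by p53, was counted at 215 and 245 CPM in the D1 libraries, 328 and 312 in D3, 237 and 227 in D8, and 336 and 281 in D10. Ckap2 passed only in the mean of both exposures (0.44 ± 0.10, edgeR adjusted p = 0.0094), and no longer did without D1 replicate 1 (0.063) or when gene length and GC content were corrected for (0.20, adjusted p = 0.13). Btg2, an antiproliferative gene, was counted at 65.3 and 102 CPM in the D1 libraries, 159 and 143 in D3, 120 and 173 in D8, and 138 and 159 in D10. Its D3 libraries were above those of D1, at 0.85 ± 0.24 with an edgeR adjusted p of 0.0502, while its D8 and D10 libraries overlapped (0.02 ± 0.24, 0.97). Gadd45a, a growth arrest and DNA damage gene, gave -0.15 in both exposures (edgeR adjusted p = 0.66 and 0.63), with 95% intervals from -0.57 to 0.27 and from -0.56 to 0.27.

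**Figure D4:**
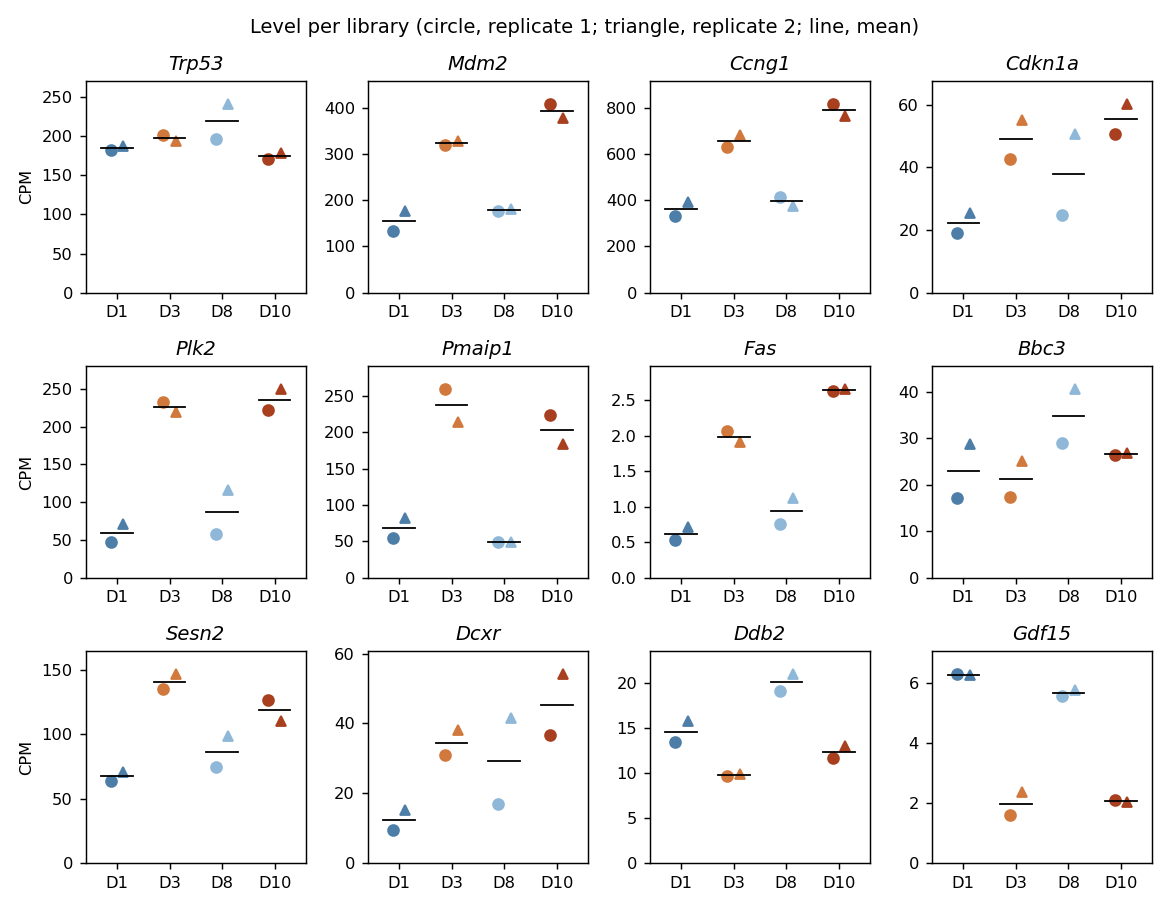
CPM in every library (circle, replicate 1; triangle, replicate 2; line, mean of the 2) for 12 p53 target genes at D1, D3, D8 and D10, each panel with its own y axis starting at 0. Mdm2, Ccng1, Plk2, Pmaip1 and Fas are higher in the exposed libraries each time, Gdf15 and Ddb2 lower, and Cdkn1a and Dcxr have a high triangle at D8.

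Among the 13 apoptosis genes, 4 rose in each exposure (Pmaip1, Fas, Eda2r and Trp53inp1), 8 rose in the mean of both, and none fell. These are 30.8%, 30.8% and 61.5%, beside 7.92%, 9.27% and 16.3% of all genes that rose. Over all genes 5.10%, 7.65% and 14.2% fell. Pmaip1 encodes Noxa, a BH3-only protein that neutralises Mcl1, and was counted at 54.9 and 81.4 CPM in the D1 libraries, 259 and 214 in D3, 48.9 and 48.7 in D8, and 223 and 184 in D10. Every exposed library was more than 100 CPM above every control library, and D8 was not above D1. The log2 fold change of Pmaip1 was 1.79 ± 0.21 in the first exposure (edgeR adjusted p = 0.0026) and 2.06 ± 0.21 in the second (0.0011), 3.47-fold and 4.17-fold. These calls held in all 8 fits that left out 1 library.

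The other strong BH3-only target and the pore-former did not follow Pmaip1. Bbc3, which encodes Puma, gave -0.11 ± 0.28 (edgeR adjusted p = 0.84) and -0.38 ± 0.28 (0.38), at 17.2 and 28.6 CPM in the D1 libraries, 17.3 and 25.2 in D3, 29.1 and 40.6 in D8, and 26.4 and 26.9 in D10. Its D1 and D3 libraries overlapped, and its D10 libraries lay just below those of D8. Bax, which permeabilises mitochondria, gave 0.16 ± 0.14 (0.51) and 0.09 ± 0.14 (0.68 by edgeR), and its libraries overlapped in both comparisons. The upper 95% bounds were 0.53 and 0.25 for Bbc3 and 0.47 and 0.41 for Bax, all below the lower bound of Pmaip1 (1.33 and 1.59); the difference between these genes was not tested.

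Of the death receptors, Fas was the gene with the lowest level and a large response. It was counted at 0.526 and 0.714 CPM in the D1 libraries, 2.06 and 1.92 in D3, 0.752 and 1.13 in D8, and 2.63 and 2.66 in D10. These levels rest on 11 to 112 reads per library, and exposed and control libraries did not overlap. Fas rose by 1.65 ± 0.35 (edgeR adjusted p = 0.019) and 1.49 ± 0.33 (0.018). Leaving out either D1 or either D3 library ended the first call of Fas, and leaving out D8 replicate 1, D10 replicate 1 or D10 replicate 2 ended the second (highest adjusted p = 0.12 and 0.062), while the mean of both exposures kept it each time. Eda2r, a TNF receptor family member on the X chromosome that p53 induces, was counted at 116 and 151 CPM in the D1 libraries, 231 and 232 in D3, 133 and 95.1 in D8, and 245 and 205 in D10. It rose by 0.79 ± 0.20 (edgeR adjusted p = 0.031) and 0.98 ± 0.20 (0.012), without overlap. Tnfrsf10b, the mouse TRAIL receptor, did not pass in any comparison (0.56 and 0.29, edgeR adjusted p = 0.12 and 0.36), although its exposed libraries were above the controls both times.

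Trp53inp1, which encodes a p53-induced nuclear protein of cell death and autophagy, was counted at 267 and 395 CPM in the D1 libraries, 662 and 588 in D3, 358 and 268 in D8, and 754 and 542 in D10. It rose by 0.92 ± 0.24 (edgeR adjusted p = 0.037) and 1.05 ± 0.24 (0.019), and its lowest exposed library was above its highest control. Without D8 replicate 2 or without D10 replicate 1 the second call of Trp53inp1 was lost (highest adjusted p = 0.10), as it was when gene length and GC content were corrected for (0.60, adjusted p = 0.068) and in the fit of the compared libraries alone (0.061). The first call was lost without either D1 or either D3 library (highest adjusted p = 0.23). For Eda2r the first call was lost without either D1 or either D3 library and the second without D10 replicate 1 (highest adjusted p = 0.21 and 0.065).

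Apaf1, the scaffold of the apoptosome, was counted at 51.4 and 92.4 CPM in the D1 libraries, 117 and 131 in D3, 90.1 and 93.1 in D8, and 146 and 146 in D10, and passed in the mean of both exposures (0.73 ± 0.17, edgeR adjusted p = 0.011). The exposed libraries of Apaf1 lay above all controls. Ei24, an endoplasmic reticulum protein, was counted at 106 and 132 CPM in the D1 libraries, 156 and 171 in D3, 110 and 128 in D8, and 155 and 157 in D10, and rose in the mean by 0.42 ± 0.11 (edgeR adjusted p = 0.016). Aen, an apoptosis-enhancing nuclease, was counted at 110 and 125 CPM in the D1 libraries, 155 and 144 in D3, 118 and 139 in D8, and 161 and 155 in D10, with 0.32 ± 0.10 in the mean (0.034 by edgeR). Neither Ei24 nor Aen overlapped between exposure and control. Pidd1, the core of the caspase-2 activating PIDDosome, was counted at 24.7 and 26.7 CPM in the D1 libraries, 37.1 and 34.6 in D3, 33.6 and 30.8 in D8, and 42.1 and 33.0 in D10, and passed narrowly in the mean (0.35 ± 0.11, edgeR adjusted p = 0.045). Its D8 and D10 libraries overlapped. The mean-exposure calls of Aen and Pidd1 each held in 2 of the 8 fits that left out 1 library; Aen lost its call without either D1, either D3 or either D10 library and Pidd1 without either D1 or either D3 library, D8 replicate 2 or D10 replicate 1 (highest adjusted p = 0.17 for each). Both calls were also lost with no filter on low counts (Aen, adjusted p = 0.053; Pidd1, 0.093). Ei24 lost its call without D1 replicate 1 or D3 replicate 2 (highest adjusted p = 0.089). Perp, a desmosomal protein linked to p53 apoptosis, and Phlda3, a repressor of Akt, gave log2 fold changes of -0.04 and 0.45 in the first exposure and 0.21 and -0.13 in the second, with none called by edgeR.

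Of the 5 DNA repair genes, Ercc5 and Polk rose in both exposures, Ddb2 fell in the second, and Xpc and Rrm2b were not called. In each exposure 40% of the repair genes rose, beside 7.92% and 9.27% of all genes. In the second 20% fell, beside 7.65%. Ercc5, which encodes the XPG endonuclease, was counted at 64.7 and 81.1 CPM in the D1 libraries, 141 and 123 in D3, 88.0 and 89.0 in D8, and 138 and 131 in D10. It rose by 0.85 ± 0.15 (edgeR adjusted p = 0.0088) and 0.60 ± 0.15 (0.026), with all exposed libraries above all controls. Polk, a translesion DNA polymerase, was counted at 28.2 and 33.3 CPM in the D1 libraries, 45.6 and 45.2 in D3, 34.4 and 31.1 in D8, and 52.6 and 46.4 in D10. It rose by 0.56 ± 0.15 (edgeR adjusted p = 0.039) and 0.60 ± 0.15 (0.026), again without overlap. Corrected for gene length and GC content, Polk gave 0.41 (adjusted p = 0.081) and 0.29 (0.19), and neither call remained. Its first call was also lost with no filter on low counts (0.060) and its second in the fit of the compared libraries alone (0.10). Ddb2, the damage sensor of nucleotide excision repair, went the other way, at 13.4 and 15.7 CPM in the D1 libraries, 9.64 and 9.86 in D3, 19.1 and 20.9 in D8, and 11.7 and 13.0 in D10. It gave -0.58 ± 0.18 in the first exposure (edgeR adjusted p = 0.065), fell by 0.70 ± 0.17 in the second (0.028) and by 0.64 ± 0.12 in the mean of both (0.0054). Each pair of exposed Ddb2 libraries lay below the controls that preceded it. The Ddb2 gene overlaps Acp2, which lies on the other strand, and whether the counting used strand is not given in the sources used here. Xpc, another damage sensor, and Rrm2b, a ribonucleotide reductase subunit, gave between -0.11 and 0.19 in both exposures and did not pass. Per exposure, the repair calls depended on the libraries: without 1 library, the first call was lost for Polk in 6 fits (either D1, either D3 and either D10 library) and for Ercc5 in 2 (D1 replicate 1 and D3 replicate 1), and the second for Polk and Ddb2 in 5 each (either D3 library, D8 replicate 2 and either D10 library) and for Ercc5 in 4 (D3 replicate 2, D8 replicate 2 and either D10 library). The mean-exposure calls of Ercc5, Polk and Ddb2 held in all 8 such fits.

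The 7 genes of metabolism, redox control and secretion held both the sestrins, which rose, and the clearest decrease among the 34. Sesn1, a stress-induced inhibitor of mTORC1, was counted at 29.4 and 29.4 CPM in the D1 libraries, 50.9 and 45.9 in D3, 22.8 and 27.1 in D8, and 37.9 and 39.8 in D10. It rose by 0.72 ± 0.15 (edgeR adjusted p = 0.015) and 0.64 ± 0.14 (0.02), without overlap. Sesn2, its paralogue, which is also a target of the stress factor ATF4, was counted at 63.5 and 70.8 CPM in the D1 libraries, 135 and 147 in D3, 74.3 and 98.4 in D8, and 127 and 110 in D10. Its first response was 1.07 ± 0.17 (edgeR adjusted p = 0.0063) and its second 0.45 ± 0.16 (0.094), with exposed above control libraries both times. Without D8 replicate 2 the second response of Sesn2 was 0.64 (adjusted p = 0.040), and without either D1 library the first no longer passed (highest adjusted p = 0.062). For Sesn1 the first call was lost without either D1 or either D3 library and the second without either D10 library (highest adjusted p = 0.15 and 0.095), and the mean of both, 0.68 ± 0.10 (0.0017), held each time.

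Gdf15, a secreted stress cytokine that is also driven by ATF4 and CHOP, was counted at 6.31 and 6.27 CPM in the D1 libraries, 1.60 and 2.37 in D3, 5.56 and 5.79 in D8, and 2.11 and 2.02 in D10. All exposed libraries were below all controls, and the controls of D8 had returned to near the D1 level. It fell by 1.66 ± 0.27 (edgeR adjusted p = 0.0071) and by 1.46 ± 0.27 (0.0088), to 0.317 and 0.364 times the preceding control. The first call was lost without D1 replicate 2 or without D3 replicate 1 (highest adjusted p = 0.061), and the second held in all 8 fits. Tigar, a fructose bisphosphatase that lowers glycolytic flux, was counted at 82.0 and 79.6 CPM in the D1 libraries, 64.7 and 59.4 in D3, 85.2 and 82.0 in D8, and 68.7 and 68.3 in D10. The exposed libraries of Tigar lay below all controls, and it passed in the mean of both exposures (-0.33 ± 0.08, edgeR adjusted p = 0.018). That call was lost without D1 replicate 2, either D3 library or D10 replicate 1 (highest adjusted p = 0.086), and the Tigar gene overlaps the counted gene Platr31.

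Dcxr, a carbonyl reductase of the xylulose pathway, was counted at 9.42 and 15.3 CPM in the D1 libraries, 30.9 and 38.1 in D3, 16.9 and 41.6 in D8, and 36.5 and 54.1 in D10. D8 replicate 2 was as high as the exposed libraries, so that D8 and D10 overlapped. Dcxr rose by 1.48 ± 0.41 in the first exposure (edgeR adjusted p = 0.048), and the second gave 0.63 ± 0.40 (0.31), which became 1.39 (0.037) without D8 replicate 2 and 1.0 (0.037) once corrected for gene length and GC content. The first call was lost without either D1 or either D3 library (highest adjusted p = 0.25) and with the stricter filter on low counts (0.052). Fdxr, a mitochondrial ferredoxin reductase, gave 0.21 and 0.06, and Ephx1, an epoxide hydrolase, 0.19 and -0.68, with overlapping libraries and no call by edgeR. For Ephx1 the 95% intervals ran from -0.86 to 1.25 and from -1.72 to 0.36, the widest of the members described here.

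Both exposures are compared here without a shared library. Of the 34 genes, 10 rose in both (Mdm2, Ccng1, Plk2, Pmaip1, Fas, Eda2r, Trp53inp1, Polk, Ercc5 and Sesn1), 1 fell in both (Gdf15), none was called in opposite directions, 4 rose in the first only (Cdkn1a, Zmat3, Sesn2 and Dcxr), 1 fell in the second only (Ddb2) and 18 passed in neither. Of all 19173 genes tested, 1182 rose in both, 730 fell in both and 1 was called in opposite directions. Another 583 were called in the first only and 1331 in the second only, in either direction, and 15346 passed in neither. The sign agreed in 29 of 34 genes (85.3%), beside 78.2% of all genes tested. Across the 34 genes the fold changes had a Pearson r of 0.9 and a Spearman rho of 0.889, and across all genes tested 0.839 and 0.752. Genes are not independent replicates, and these are descriptions. The difference between both responses was tested as an interaction, and edgeR called 0 of the 34 genes and 0% of all genes. DESeq2 also called 0 of the 34. An unadjusted edgeR p under 0.05 was found for 575 of all 19173 genes tested, and for 2 of the 34. These were Btg2 (-0.83 ± 0.34, unadjusted p = 0.036) and Sesn2 (-0.61 ± 0.23, unadjusted p = 0.027), each with an adjusted p of 0.9999. The genes called in 1 exposure only are therefore not shown to have responded differently. Set against the promoter letters, 8 of the 11 genes with a decamer rose in the mean of both exposures and none fell, 8 of the 15 without one rose and 2 fell, and 3 of the 8 with no window rose and 1 fell. Over all genes tested, 16.3% rose and 14.2% fell in that mean. The decamer counts are a description, and their difference was not tested.

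**Figure D5:**
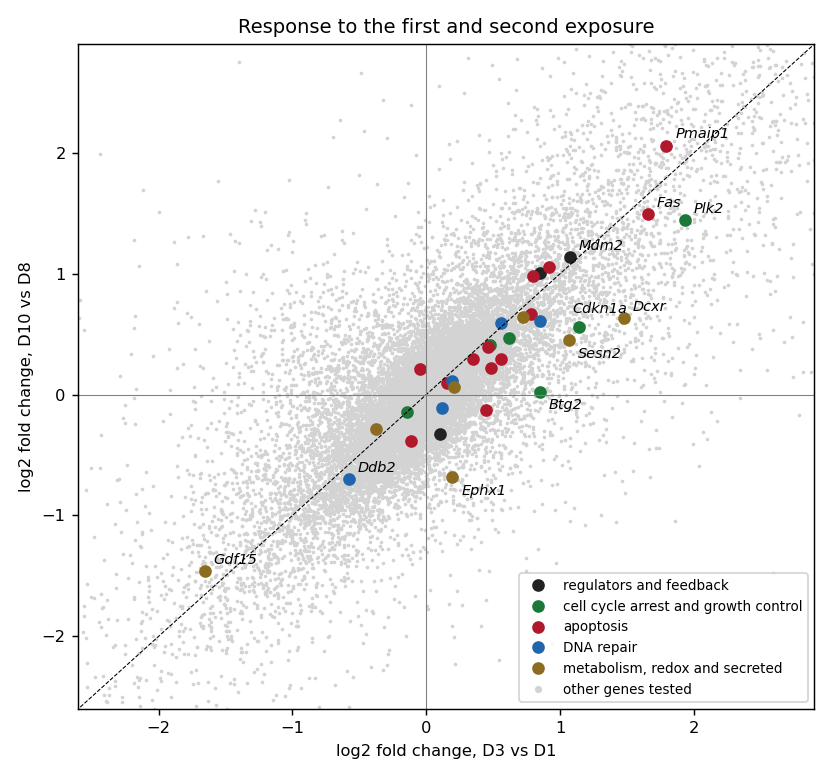
Log2 fold change after the first exposure (x axis) against the second (y axis) for the 34 p53 target genes, coloured by role, over all genes tested in grey; the dashed line marks equal responses, and genes beyond the axes are not drawn. Pmaip1, Plk2, Fas and Mdm2 lie at the upper right, Gdf15 at the lower left, and Cdkn1a, Dcxr, Sesn2 and Btg2 below the line.

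Between the exposures, the D8 libraries are compared with D1 to show whether the 34 genes had returned to their start, and these libraries are the controls of the comparisons above. By edgeR 0 of the 34 were called, beside 0.177% of all genes, and DESeq2 called 0. With no filter on low counts edgeR called 6, all higher at D8 (Cdkn1a, Btg2, Plk2, Phlda3, Dcxr and Ephx1), so the count of 0 depends on that filter. The share of all genes called without the filter is not set beside that 6. In the filtered fit 8 of the 34 had an unadjusted edgeR p under 0.05, beside 2311 of all 19173 genes tested. These were Cdkn1a (0.77), Btg2 (0.81), Tnfrsf10b (0.58), Phlda3 (0.76), Ddb2 (0.46), Dcxr (1.24) and Ephx1 (1.08), all higher at D8, and Pmaip1 (-0.48), lower. The median over the 34 was 0.26 and 28 lay above 0; it was 0.178 without D8 replicate 2 and 0.0947 without D1 replicate 1. In 15 genes both D8 libraries were above both D1 libraries and in 3 below, beside 21.6% and 20.3% of all genes. For Mdm2 the 95% interval of the difference ran from -0.13 to 0.56 and for Trp53 from -0.06 to 0.55, so a lasting difference within these bounds is not excluded.

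Other genes of the pathway were taken from lists that the member list did not include. Of 23 tested upstream regulators and partners of p53, none passed in the first exposure and 1, the deubiquitinase gene Usp10, fell in the second (-0.45 ± 0.12, edgeR adjusted p = 0.037). Over all genes, 13.0% and 16.9% were called in these exposures. Within that list 4 of 23 had an unadjusted edgeR p under 0.05 in the first exposure, beside 5380 of all 19173 genes tested. The mean of both exposures called 2 higher and 2 lower, 8.7% each way, beside 16.3% and 14.2% of all genes. Of 30 further reported p53 targets tested, 6 rose and 1 fell in the first exposure and 4 rose and 5 fell in the second. In the first, 20% rose and 3.33% fell, beside 7.92% and 5.10% of all genes. In the second, 13.3% rose and 16.7% fell, beside 9.27% and 7.65%. The medians of the list were 0.05 and -0.07. The largest change was in Igfbp3, which binds insulin-like growth factors, with means of 14.4 CPM at D1, 81.5 at D3, 12.3 at D8 and 69.6 at D10. Its 2 exposed libraries differed widely, with a standard deviation of 29.9 CPM at D3 and 35.6 at D10. The log2 fold changes of Igfbp3 were 2.51 ± 0.39 (edgeR adjusted p = 0.0063) and 2.50 ± 0.39 (0.0048). Rap2b, a small GTPase, rose by 0.96 and 0.91, and Cpt1c and the cytokine gene Lif rose in the first exposure by 0.94 and 0.92. In the second, Pltp, a lipid transfer protein, fell by 1.16 and Ulk1, an autophagy kinase, fell by 0.90.

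Of 18 genes repressed downstream of p21 through the DREAM complex, 2 (Ccnb2, -0.73, and Top2a, -0.46) fell in the first exposure, and in the second 2 fell (Mybl2, -1.02, and Ccnb2, -0.75) and 1 rose (Mad2l1, 0.62). The share that fell was 11.1% in each, beside 5.10% and 7.65% of all genes. Their medians were -0.09 and -0.22. Of 12 other BCL-2 family genes, Hrk fell by 2.16 in the first exposure. In the second, Bcl2l11, which encodes the BH3-only protein Bim, rose by 1.13 ± 0.18 (edgeR adjusted p = 0.0053) and Bid fell by 0.58. In this list 8.33% fell in each exposure, beside 5.10% and 7.65% of all genes. The share that rose in the second was 8.33%, beside 9.27%. The mean of both exposures called 2 of these 12 higher and 5 lower. These are 16.7% and 41.7%, beside 16.3% and 14.2% of all genes. A list of 12 genes held Atf4, Ddit3 (which encodes CHOP) and other targets of these 2 stress factors, named above for Gdf15. Of the 12, 3 fell in the first exposure (Nupr1 at -2.54, Trib3 at -1.34 and Asns at -0.54) and Ppp1r15a rose (0.72). Only Nupr1 was called in the second (-1.56). Atf4 (-0.46 and -0.02) and Ddit3 (-0.85 and 0.17) were not called in either. The share that fell was 25% and 8.33%, beside 5.10% and 7.65% of all genes. In the first exposure 8.33% rose, beside 7.92%. Per kilobase of exon, the most abundant of the 34 p53 targets over all libraries was Ccng1, at 157 RPKM (CPM divided by exon length in kilobases), followed by Ckap2 at 84.8 and Trp53inp1 at 74.0. Trp53 and Btg2 (48.0 and 48.2 RPKM) stood near Pmaip1 and Mdm2 (50.9 and 51.7), Cdkn1a at 11.6, and Gdf15 (2.16), Rrm2b (1.20) and Fas (0.751) were lowest.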

How the data were processed

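Total RNA of R1 cells was extracted with Trizol, depleted of ribosomal RNA and made into stranded libraries, per the labels' protocols; the molecule field reads polyA RNA. The submitters' processing notes name bcl2fastq 2.17.1.14, STAR 2.5.0a, featureCounts and build mm10; for strand and annotation release the setting is not given in the sources used here. The authors deposited raw read counts per Ensembl gene, which were used as deposited. Of 36920 identifiers, 36901 had a symbol in GENCODE M21. Genes passing filterByExpr (19173) were fitted in edgeR 4.0.16 (R 4.3.3) with TMM scaling, 1 quasi-likelihood model of the 4 groups, 4 residual degrees of freedom before moderation and 2-sided tests. Alternatives were DESeq2 1.42.0, RLE size factors, other filters, a replicate block, a GC and length correction, fits of the compared groups alone and leaving out each library. The fit was tested on simulated data. CPM values per library are given for Trp53, Mdm2, Cdkn1a and every gene called in any comparison; up to 4 called genes with the largest change per exposure are named from each supporting list. The genes and lists were chosen with earlier results of these data known.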

Additional observations from a re-analysis of the deposited data

Results flagged for a closer look

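Trp53 had both D3 libraries above both D1 libraries and both D10 libraries below both D8 libraries, so the sign of its difference turned between the exposures. The second response minus the first was -0.42 ± 0.19 (log2, edgeR unadjusted p = 0.054, adjusted p = 0.9999), and the difference between the responses did not pass the test. The levels were 182 and 187 CPM in the D1 libraries, 201 and 194 in D3, 197 and 242 in D8, and 171 and 179 in D10.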

How the results depend on the processing

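The count of the 34 genes called was 15 in the first exposure, 12 in the second, 22 in their mean, 0 for D8 against D1 and 0 for the interaction. Leaving out 1 library gave 3 to 18, 5 to 13, 16 to 23, 0 to 2 and 0. For D8 against D1 it was 6 with no filter on low counts. Fits of the compared libraries alone called 23 in the first exposure and 4 in the second. The mean of both exposures stayed within 1.5 times its count in every alternative run, and the interaction at 0. Of the calls, 2 of 15 (Mdm2 and Pmaip1), 4 of 12 (Mdm2, Ccng1, Pmaip1 and Gdf15) and 15 of 22 held in all 8 fits that left out 1 library. The labels give each group the numbers 1 and 2 without saying that a number marks a shared culture or day. Libraries of the same number deviated together with correlations of 0.101 to 0.498 over all genes and 0.242 to 0.799 over the 34, over 2 numbers only. With the replicate number as a block, 23 genes were called in the first exposure, 19 in the second and 4 for D8 against D1. Shares of all genes called in these alternatives are not set beside the counts, so a change over all genes is not told apart from one in the 34.

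Directions turned in 23 of the single-gene values, all of genes that were not called. With the GC and length correction these were Bbc3 (0.126) and Rrm2b (-0.0386) in the first exposure, Bbc3 (0.00483), Phlda3 (0.299), Rrm2b (-0.272) and Xpc (0.0312) in the second, and Trp53 (0.0193) in the mean. With the compared libraries alone, Btg2 gave -0.00161 in the second. Leaving out 1 library gave these genes values on both sides of 0. In the first exposure Gadd45a ran from -0.363 to 0.0107 (without D3 replicate 1), Bbc3 from -0.457 to 0.307 (without D1 replicate 2), Perp from -0.386 to 0.362 (without D1 replicate 2) and Ephx1 from -0.333 (without D1 replicate 1) to 0.998. In the second Btg2 ran from -0.231 (without D8 replicate 1) to 0.276, Bax from -0.0222 (without D8 replicate 1) to 0.180, Phlda3 from -0.444 to 0.239 (without D8 replicate 2), Rrm2b from -0.212 (without D8 replicate 2) to 0.474 and Fdxr from -0.220 (without D8 replicate 1) to 0.376. The cause was not tested. With no filter, the median over all genes in the mean of both exposures moved from 0.00831 to 0.129. Depth limited Fas most, with 11 reads in its smallest library.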
